A study of Mus musculus with 3 samples.

Results

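The 10 genes described here are Fgf4, a fibroblast growth factor made by mouse embryonic stem (ES) cells, and 9 genes known as transcriptional targets and regulators of the kinase ERK, through which such factors signal: Spry2, Spry4, Spred1, Spred2, Dusp4, Dusp6, Etv4, Etv5 and Il17rd. They were chosen by name, but with earlier results of these data known, so their counts beside those of all genes are descriptions only. Every probe set that the array annotation gives to a single gene of the 10 was taken. This gave 32 of the 45037 probe sets shared by the arrays, a probe set being a group of short probes for the same transcript. The RNA came from ES cells, which are derived from the early embryo, in which Pou5f1, encoding the pluripotency factor Oct3/4, could be knocked out conditionally. Cells that lack Oct3/4 from the outset cannot be kept in culture, and the stated question was how expression changes without it. There were 3 arrays, 1 each for day 0, day 1 and day 2 of the knockout, so replicate error could not be estimated and no test was made. The inducing agent, the cell line, the culture medium and any feeder cells are not given in the sources used here, and since the arrays include no culture that kept Oct3/4 to day 1 or day 2, its loss cannot be told apart from time in culture or from the inducing treatment.

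Fibroblast growth factors bind receptor tyrosine kinases together with heparan sulfate, a sugar chain of the cell surface, and the receptor passes the signal through adapter proteins, RAS, RAF and MEK to ERK. In ES cells Fgf4 is the main ligand made by the cells themselves, and its ERK signal prepares them to leave the naive state. ERK switches on its own inhibitors, so transcripts of Sprouty, Spred, Dusp and Etv genes are widely used as a readout of pathway activity, although the activity itself was not measured here. Fgf4 is a textbook target of Oct3/4 together with Sox2, which act through an enhancer downstream of its coding sequence.

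The targeted gene went with the labels. The single probe set of Pou5f1 gave 2400 at day 0, 40.8 at day 1 and 15.5 at day 2, in units of array signal, so that on both later days it lay under 55.9, the constant of the log scale. Of 8 ES cell markers, 8 were above a signal of 55.9 at day 0 and 7 at day 1 and at day 2, Pou5f1 being the exception on both days, and their signals summed to 112647, then 68213, then 23660 over the 3 days. The summed signal of 8 trophectoderm markers, genes of the placental lineage, was 7606, 11866 and 53549, with 6, 8 and 8 of them above 55.9. That of 7 primitive endoderm markers, genes of the yolk sac lineage, was 604, 1207 and 1390, with 5, 4 and 5 above it. Gata6 (131, 457 and 458) and Dab2 (204, 498 and 600) were higher on the later days, while Gata4 (76.0, 59.4 and 41.9) and Sox17 (86.2, 69.7 and 61.9) were lower on the later days. Of 10 fibroblast markers, which feeder cells would carry, 4, 3 and 4 were above it, with a summed signal of 772, 702 and 588. Among these, the collagen gene Col1a1 was at 36.2, 33.8 and 26.3 and Dcn at 8.90, 7.30 and 15.5, while Thy1 was at 400, 275 and 89.3. Others were higher on the later days, among them Pdgfrb (60.8, 144 and 123) and Col1a2 (96.8, 102 and 127). In such bulk RNA, fewer cells of a type and less RNA per cell cannot be told apart, and the part of these shifts in cell markers in the results that follow was not tested.

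All 10 genes were lower at day 2 than at day 0, each by at least 2-fold in its brightest probe set. Differences are given as log2(signal + 55.9), where 55.9 is the 40th percentile of all signals; this scale damps the differences of dim probe sets. A probe set was used where its mean signal over the arrays reached this constant, which left 29 of the 32, and each of the 10 genes kept at least 1 of them. At day 2, 10 of 10 genes were at least 2-fold lower than at day 0, with a median of -2.22, and the range ran from -4.68 for Fgf4 to -1.09 for Spred2. Among all 12717 measured genes 5.65% were at least 2-fold lower and 5.25% at least 2-fold higher, with a median of 0.05. At day 1, 3 of 10 genes, Fgf4, Etv5 and Il17rd, were at least 2-fold lower than at day 0, and the median was -0.36, where 2.59% of all genes were lower and 2.40% higher by this size and the median of all genes was 0.04. From day 1 to day 2, 9 of 10 genes, the exception being Dusp4, were at least 2-fold lower, with a median of -1.87, against 2.65% of all genes lower, 2.09% higher and a median of 0.00. The count of members at least 2-fold higher was 0 in each of the 3 comparisons. Under an alternative scaling that equalised the medians of 43 ribosomal protein genes and shifted the median of all genes by -0.16 at day 2 and -0.15 at day 1, the shares of all genes became 7.22% lower and 3.82% higher at day 2, and 3.64% lower and 1.48% higher at day 1; the counts of members were 10 at day 2 and 3 at day 1 as before. Variation between cultures and between arrays was not measured. Probe sets for 1 gene disagreed with a pooled SD of 0.34 for day 2 against day 0, and of 0.30 for each of the other comparisons, over 5906 genes, and this covers probe error only.

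**Figure D1:**
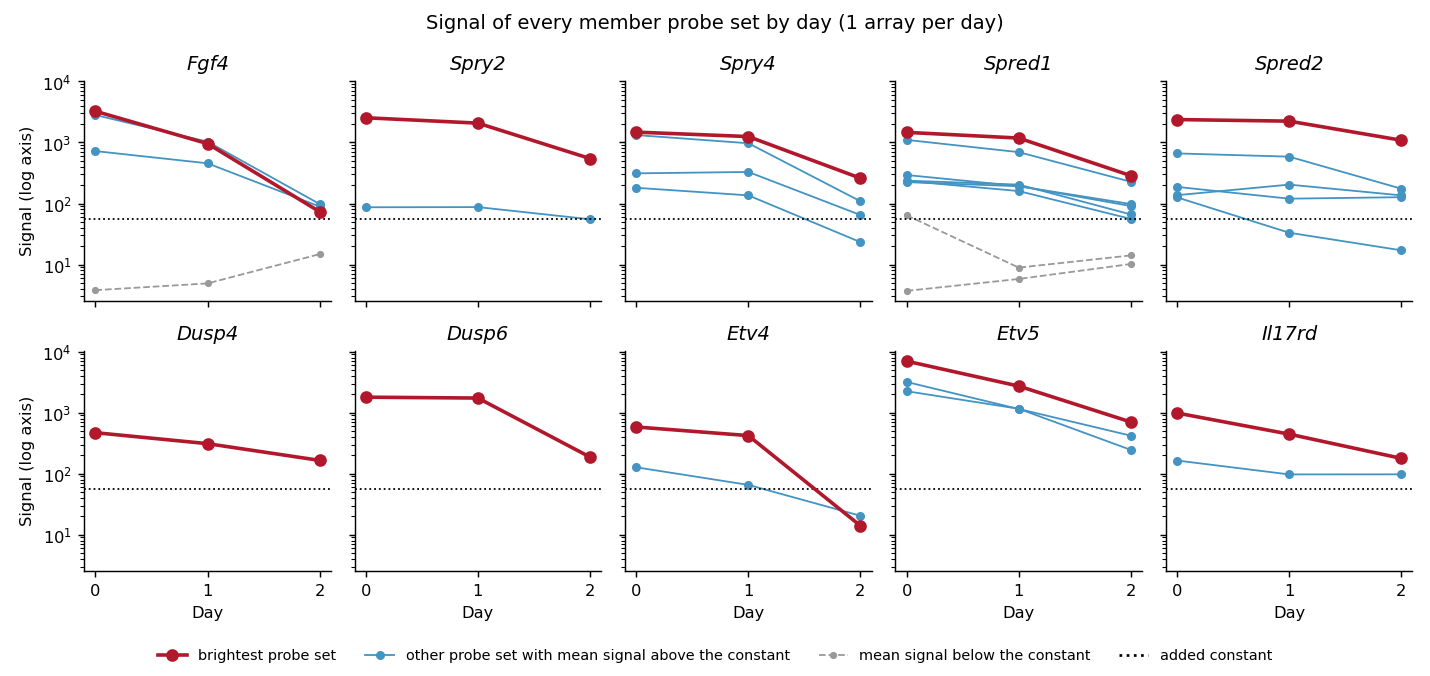
Signal on a logarithmic axis against the day for each of the 32 probe sets, in a panel per gene, with 1 array per day. The red line is the brightest probe set of a gene, blue lines are other probe sets in use, grey dashed lines are the 3 dim ones left out, and the dotted line is the constant of 55.9. The red lines of Dusp6, Spry2, Spry4, Spred1 and Spred2 run nearly level to day 1 and drop after it, whereas those of Fgf4, Etv5 and Il17rd slope down from day 0.

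The promoters of Fgf4, Etv5 and Dusp6 are shown because these genes gave large differences at day 2 on different courses: Fgf4 and Etv5 were at least 2-fold lower by day 1, and Dusp6 by day 2 only. Of the 10 genes 7 had a promoter in the RefSeq table of mouse build GRCm38.p6, in 8 windows. The 250 bases before the start of transcription are printed 5′ to 3′ on the strand of the gene, with capitals for the letters GGGCGG (the GC box), CCAAT (the CCAAT box) or TATATA on either strand.

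Fgf4, chr7:144861136-144861385, plus strand: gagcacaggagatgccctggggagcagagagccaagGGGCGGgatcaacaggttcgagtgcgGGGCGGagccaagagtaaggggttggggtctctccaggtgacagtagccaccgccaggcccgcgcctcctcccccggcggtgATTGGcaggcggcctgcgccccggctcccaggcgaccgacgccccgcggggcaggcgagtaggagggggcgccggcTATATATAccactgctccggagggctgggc

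Etv5, chr16:22439571-22439820, minus strand: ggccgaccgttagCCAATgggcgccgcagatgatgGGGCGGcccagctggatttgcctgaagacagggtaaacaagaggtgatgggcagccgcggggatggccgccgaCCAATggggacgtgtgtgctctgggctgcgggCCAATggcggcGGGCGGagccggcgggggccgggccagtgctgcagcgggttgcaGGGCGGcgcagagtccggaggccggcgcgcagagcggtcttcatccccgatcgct

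Dusp6, chr10:99262981-99263230, plus strand: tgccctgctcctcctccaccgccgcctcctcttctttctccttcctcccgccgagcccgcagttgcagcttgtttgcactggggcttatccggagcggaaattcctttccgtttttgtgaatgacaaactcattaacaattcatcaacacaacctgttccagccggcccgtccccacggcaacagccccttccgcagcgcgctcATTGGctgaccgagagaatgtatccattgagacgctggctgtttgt

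The Fgf4 window held GGGCGG at 214 and 188 bases before the start, CCAAT on the other strand at 106 bases, and the overlapping TATATA matches at 30 and 28 bases. The Etv5 window printed held 3 matches of GGGCGG and 3 of CCAAT, and that of Dusp6 a single CCAAT, on the other strand, 46 bases before the start. Among the 8 windows, which cover 7 of the 10 genes, 5 held GGGCGG and 5 held CCAAT, with both windows of Etv5 among the latter. Of all 32851 promoter windows 32.7% and 33.8% did. TATATA was in 1 of the 8, against 5.25% of all windows. These motifs were added after the windows of the members had been seen, so these shares are a description only. GC content was 71.2% in the Fgf4 window, 71.2% in this Etv5 window and 56.4% in the Dusp6 window, with a median of 52.4% over all windows. The other motifs searched, on both strands, were ATGCAAAT, the octamer of POU factors, CCGGAA, an ETS motif, and TGANTCA, the AP-1 motif. They were present in 1.60%, 12.0% and 6.75% of all windows and in 0 of the 8, which says only that these letters are not in these 250 bases.

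Fgf4, the ligand, was the lowest of the 10 at day 2. Its brightest probe set gave 3253 at day 0, 958 at day 1 and 73.5 at day 2, so that 29.4% of the day 0 signal remained at day 1 and 2.26% at day 2. The difference was -1.71 at day 1 and -4.68, or 25.6-fold, at day 2. The day 2 signal was close to the constant. Fgf4 had the 9th lowest difference of the 12717 measured genes at day 2 and the second lowest, -2.97, between day 1 and day 2. A further probe set, built from the same sequence record, gave 2819, 1032 and 98.2, and one from another record gave 723, 456 and 89.3. That last set showed a smaller difference of -2.42 at day 2 and of only -0.60 at day 1. The order of the days was therefore the same in the 3 probe sets in use, while the size was not, and at day 1 it was past 2-fold in 2 of the 3. The other probe set for Fgf4, also from the shared record, lay near background at 3.80, 4.90 and 14.8 and was not used.

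The Sprouty proteins act inside the cell between receptor and RAF, and both Sprouty genes among the members were nearly level until day 1. Spry1, outside the members and named after its values were seen, gave 565, 908 and 511. Its difference was 0.64 at day 1 and -0.13 at day 2, so it did not share the course of Spry2 and Spry4. Spry2 had signals of 2544, 2076 and 546 in the order of the days. It was at -0.29 at day 1 and at -2.11, or 4.32-fold lower, at day 2. Its other probe set was dim, at 86.8, 87.3 and 55.2, with a difference of -0.36 at day 2 that did not reach 2-fold. Spry4 had 1478, 1251 and 260 in its brightest probe set, with -0.23 at day 1 and -2.28 at day 2. The second Spry4 probe set gave 1323, 972 and 109 and a larger difference of -3.07 at day 2, and the other two, which share a source sequence, gave -1.61 and -1.58. All 4 Spry4 probe sets were thus at least 2-fold lower at day 2 and 0 of the 4 at day 1, where the differences ranged from -0.42 to 0.06.

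Spred1 and Spred2 encode relatives of Sprouty that bind RAS regulators at the membrane, and they differed in size. Spred1 gave 1466, 1182 and 286, with -0.30 at day 1 and -2.15 at day 2. Of its 8 probe sets 6 were in use, from 3 sequence records, and 5 of the 6 were at least 2-fold lower at day 2, from -2.15 to -0.86 for all 6. The probe sets left out gave 64.1, 8.90 and 14.1, and 3.70, 5.80 and 10.2. Spred2 was the least lowered of the 10, with 2376, 2238 and 1089, which is -0.08 at day 1 and -1.09, or 2.12-fold, at day 2. Its 5 probe sets disagreed. The second brightest gave 662, 586 and 175 and a difference of -1.64 at day 2, and a dim one -1.32, but the remaining ones gave -0.41 and -0.01. Averaged over these 5, Spred2 was at -0.89 at day 2, under 2-fold. Its step between day 1 and day 2 only just reached 2-fold, and it was -0.97 with the constant doubled and -0.63 when averaged.

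The phosphatase genes differed in timing. Dusp6 encodes the cytoplasmic phosphatase that removes activating phosphates from ERK, and its single probe set gave 1791 at day 0, 1733 at day 1 and 187 at day 2. At day 1, 96.8% of the day 0 signal remained, and at day 2, 10.4%. The difference was -0.05 at day 1 and -2.93 at day 2, and its -2.88 between day 1 and day 2 was the third lowest of all measured genes, after Fgf4. Dusp4 encodes a nuclear phosphatase of ERK and gave 469, 310 and 165, also from a single probe set. It was at -0.52 at day 1 and at -1.25, or 2.38-fold lower, at day 2, with steps of similar size on both days. With 1 probe set each, neither gene has a check from another probe set.

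Etv4 and Etv5 encode ETS transcription factors of the PEA3 group, which are induced by ERK and activate genes downstream of it. Etv5 was lower from the first day, with 6975, 2720 and 702 in its brightest probe set. It was at -1.34 at day 1 and -3.21, or 9.28-fold lower, at day 2. The other probe sets of Etv5, which share a sequence record, gave 3179, 1147 and 419, and 2244, 1157 and 245. The 3 probe sets ranged from -1.43 to -0.92 at day 1 and from -3.21 to -2.77 at day 2, the closest agreement at day 2 among the members with several probe sets in use (SD 0.23, n = 3 probe sets). Etv4 gave 582, 420 and 14.0, with -0.42 at day 1 and -3.19 at day 2. Its day 2 signal lay far below the constant, so the size of its difference is limited by the constant, and was -3.86 with the constant halved and -2.46 with it doubled. The dimmer Etv4 probe set, at 127, 65.4 and 20.4, gave -0.59 and -1.26.

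Il17rd, also called Sef, encodes a membrane protein that antagonises FGF receptor signalling. Its signals were 985, 444 and 178, which is -1.06 at day 1 and -2.16, or 4.46-fold lower, at day 2. The other probe set gave 164, 97.1 and 97.4, or -0.52 at both days, so that only the step to day 1 was shared by both. As the mean of both, Il17rd was at -0.79 at day 1, under 2-fold, and at -1.34 at day 2. With the constant doubled it was at -0.98 at day 1, and between day 1 and day 2 at -0.94 rather than -1.10. The averaged value between day 1 and day 2 was -0.55.

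**Figure D2:**
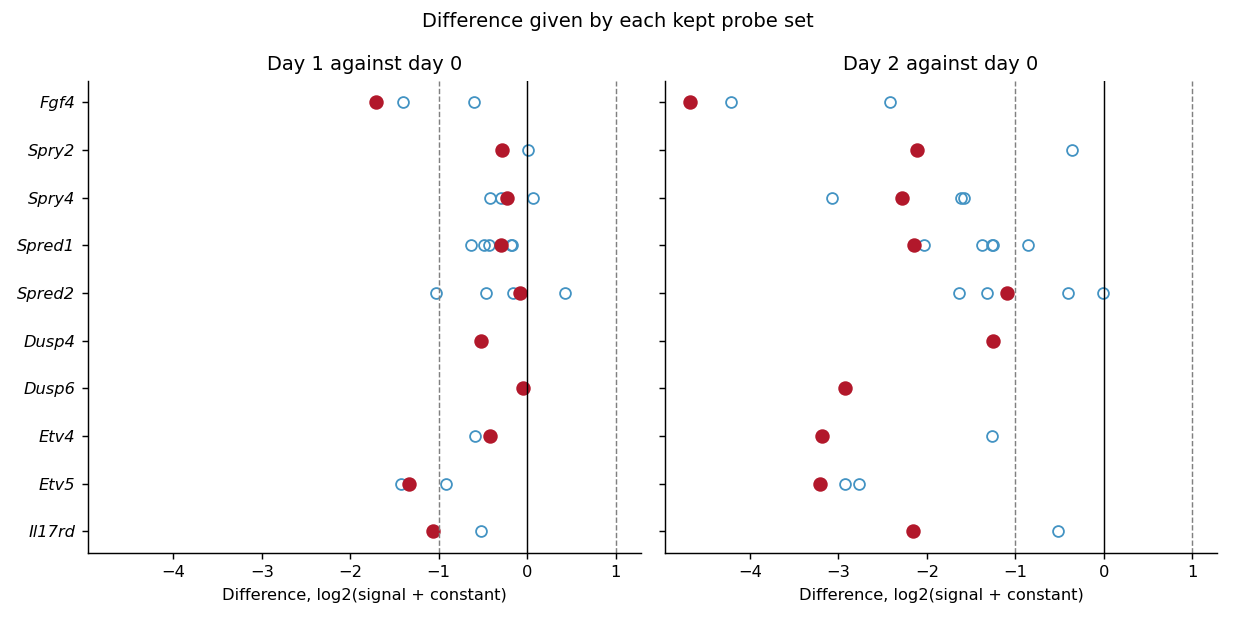
Difference in log2(signal + constant) given by each of the 29 probe sets in use, for day 1 against day 0 on the left and day 2 against day 0 on the right. Red filled points are the brightest probe set of a gene, open blue points the others, and dashed lines mark 2-fold. At day 2, 24 of the 29 lie at least 2-fold below 0, against 6 at day 1. Of all genes, by their brightest probe set, 5.65% and 2.59% were that much lower.

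Over all probe sets in use, 29 of 29 were below 0 at day 2, from -4.68 to -0.01, and 24 of them were at least 2-fold lower. At day 1, 26 of 29 were below 0 and 6 were at least 2-fold lower: 2 of Fgf4, 2 of Etv5, 1 of Il17rd and 1 dim set of Spred2. Between day 1 and day 2, 27 of 29 were below 0 and 19 at least 2-fold lower. Of all genes, by their brightest probe set, 45.9% were below 0 at day 2, 44.7% at day 1 and 49.8% between the days. The shares of all genes at least 2-fold lower were 5.65%, 2.59% and 2.65%. Shares over all probe sets are not given here. Probe sets of 1 gene, and those from 1 source sequence, measure the same RNA and are not independent of each other.

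By their brightest probe sets, the members differed in timing when the day 1 difference was set against the day 2 difference of the same gene. Dusp6 had reached 1.56% of its day 2 difference at day 1, Spred2 7.74% and Spry4 10.1%. Etv4 (13.2%), Spry2 (13.5%) and Spred1 (13.8%) were close to one another. Fgf4 had reached 36.5%, Etv5 and Dusp4 41.7% each and Il17rd 49.1%, and by these probe sets 0 members lay between Spred1 and Fgf4. Other probe sets did not keep this gap: 3 of Spred1 gave 30.8%, 31.1% and 39.2%, the dimmer one of Etv4 47.0% and one of Fgf4 24.9%. With the probe sets of a gene averaged, Dusp6, Spry4 and Spry2 were at 1.56%, 10.4% and 11.4%, and the others followed without a clear break from Etv4 (22.8%), Spred1 (24.5%), Spred2 (29.5%) and Fgf4 (32.8%) to Il17rd (59.1%). For the 6 genes with the lowest shares by the brightest probe set, the day 1 difference was between -0.42 and -0.05, and those from -0.30 to -0.05 are no larger than the pooled SD between probe sets of 0.30; their order at day 1 is therefore unresolved. The median share was 13.7% over the 10 members and 52.1% over the 718 genes at least 2-fold lower at day 2, whose middle 50% ran from 30.8% to 71.5%. The median of the members was 27.0% when the probe sets of a gene were averaged and 20.1% under the ribosomal protein scaling. The 52.1% is for the brightest probe sets and the main scaling only, so these values cannot be set against it.

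**Figure D3:**
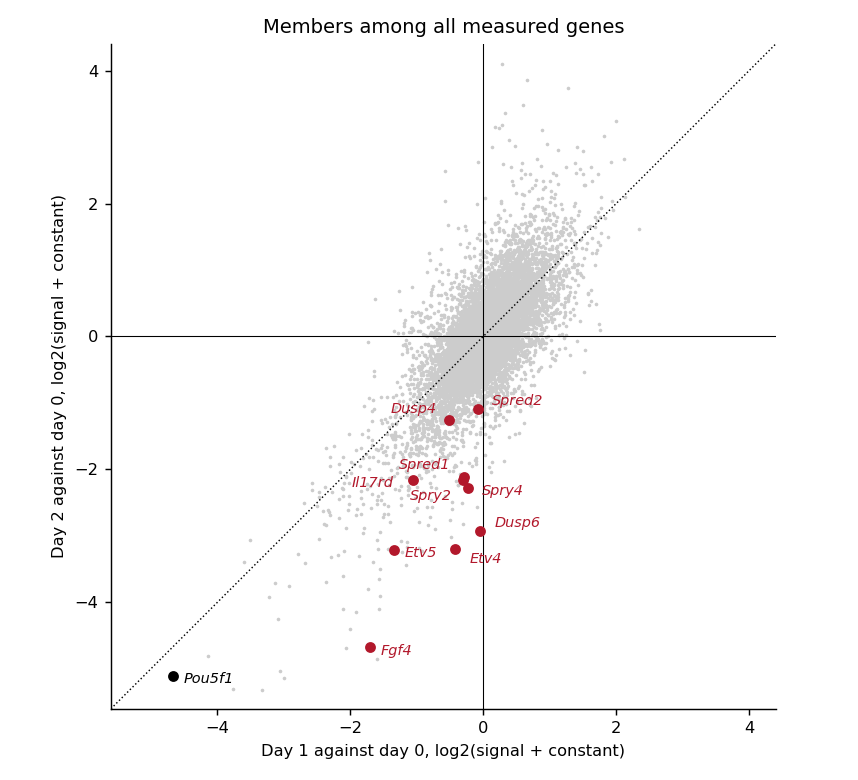
Difference at day 2 against the difference at day 1, both against day 0 and in log2(signal + constant), for 12717 genes (grey), the 10 members (red) and Pou5f1 (black). On the dotted line a gene has the same difference on both days. Pou5f1 is at -4.67 and -5.10, values set by the constant because its signals on both later days lie under it (-5.14 and -5.80 with it halved, -4.04 and -4.30 with it doubled), and the members lie below it, with Dusp6 at -0.05 and -2.93.

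Among other genes of the pathway, the share at least 2-fold lower at day 2 was near that of all genes. Of 113 further pathway genes in 6 lists, also chosen with earlier results of these data known, 103 had a probe set of their own and 81 were measured. At day 2, 5 of the 81 (6.17%) were at least 2-fold lower and 12 (14.8%) at least 2-fold higher, against 5.65% and 5.25% of all genes, with a median of 0.31 where the median of all genes was 0.05. At day 1 there were 5 (6.17%) in each direction, against 2.59% of all genes lower and 2.40% higher. Between day 1 and day 2 there were 3 lower (3.70%) and 7 higher (8.64%), against 2.65% and 2.09%. The 3 lower between day 1 and day 2 were Ier2, Elk3 and Ccnd1, and the 7 higher were Gpc1, Dusp8, Dusp14, Dusp16, Fos, Jun and Myc.

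Most other FGF ligands were dim. Of 21 ligand genes 8 were measured. Fgf17 was the 1 at least 2-fold lower at day 2 (12.5%, against 5.65% of all genes), with 215, 66.4 and 6.90 and a difference of -2.11. Its day 2 signal lay far below the constant, and the difference was -2.80 with the constant halved and -1.46 with it doubled. Fgf9 gave 182, 57.7 and 120. It was at least 2-fold lower than at day 0 only at day 1, with -1.07 then and -0.43 at day 2. With the constant doubled the day 1 differences of Fgf9 and Fgf17 were -0.79 and -0.87. Fgf2, at 15.7, 31.0 and 23.2, and Fgf5, the ligand of the primed epiblast, at 39.3, 2.60 and 5.00, were below the constant on each array.

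Receptor and heparan sulfate genes included members that were higher. Of 6 measured receptor genes, 1 (16.7%) was at least 2-fold higher at day 1 and 1 (16.7%) at day 2. The shares of all genes were 2.40% and 5.25%. Fgfr1 gave 570, 1055 and 1424 and was at 1.24 at day 2. Its other probe sets gave 0.86 and 0.60, under 2-fold. Fgfr2 gave 757, 1690 and 1436, with 1.10 at day 1 and 0.87 at day 2, and its other probe set 1.22 and 1.34. Its day 1 value was 0.94 under the ribosomal protein scaling. Of 19 heparan sulfate genes, the core protein genes Gpc1 (1.96), Sdc3 (1.83) and Gpc3 (1.45) were at least 2-fold higher at day 2, and Sulf1 (-1.54), a sulfatase that edits heparan sulfate, was lower; this is 15.8% higher and 5.26% lower, against 5.25% and 5.65% of all genes. Averaged over its probe sets, Sdc3 was at 0.98. At day 1 Hs6st1 (1.09) and Sdc4 (1.01) were higher and Sulf1 (-1.35) lower, with Hs6st1 at 0.92 under the ribosomal protein scaling and Sdc4 at 0.17 in its other probe set.

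The relay from adapters to ERK stayed within 2-fold. All 17 measured genes of 25 did so in the 3 comparisons, with a median of 0.32 at day 2. Of all genes, 5.65% were at least 2-fold lower and 5.25% at least 2-fold higher at day 2. Grb2, an adapter, gave 2178, 2256 and 2389, and Map2k1, which encodes the kinase MEK1, gave 3848, 4461 and 3829.

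Some relatives of the members were higher at day 2. Of 12 measured genes in the list of other Sprouty, Spred and Dusp genes with related inhibitors, 5 (41.7%, against 5.25% of all genes) were at least 2-fold higher at day 2 and 0 lower (5.65% of all genes). Dusp9, another cytoplasmic ERK phosphatase, gave 3173, 8274 and 10836, with 1.37 at day 1 and 1.75 at day 2, and its other probe sets 1.82 and 2.09 at day 2. Errfi1, an inhibitor of EGF receptors, was at 1.52 at day 2 and at 1.02 at day 1, which was 0.85 under the ribosomal protein scaling. Dusp8 (2.18), Dusp16 (1.68) and Dusp14 (1.02) were the others. Dusp14 was at 0.88 with the constant doubled and 0.87 under the ribosomal protein scaling. Dusp8 had a day 0 signal of 26.1, below the constant, and was at 1.64 with the constant doubled. The other probe set of Dusp8 gave 0.88 at day 2, under 2-fold, and the mean over its probe sets was 1.53. Dusp16 and Dusp14 were lower at day 1 than at day 0, by -0.53 and -0.71, before their higher day 2 signals.

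Among 19 measured transcription genes that ERK can induce, 3 were at least 2-fold lower and 3 higher at day 2, or 15.8% each way against 5.65% and 5.25% of all genes. Ccnd1, the gene of cyclin D1, gave 2061, 1361 and 346 and was at -2.40. Ier2, an immediate early gene, was at -1.75. Elk3, at -1.18, was at -0.67 when its 4 probe sets were averaged. Jun was at 2.28, with 363, 662 and 1983, and at 1.48 in its other probe set. Ets1 was at 1.69, while its other probe sets gave 1.80, 1.35 and 0.27. Averaged over its probe sets, Ets1 was at 1.28. Egr3 was at 1.24, or 0.87 with the constant doubled, and its day 0 signal of 32.9 lay below the constant. Myc and Egr1 were lowest at day 1. Myc gave 1165, 341 and 1745, which is -1.62 at day 1 and 0.56 at day 2, and Egr1 gave 346, 129 and 229, with -1.12 at day 1, or -0.93 with the constant doubled. Fos gave 150, 108 and 350, with 0.98 at day 2.

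**Figure D4:**
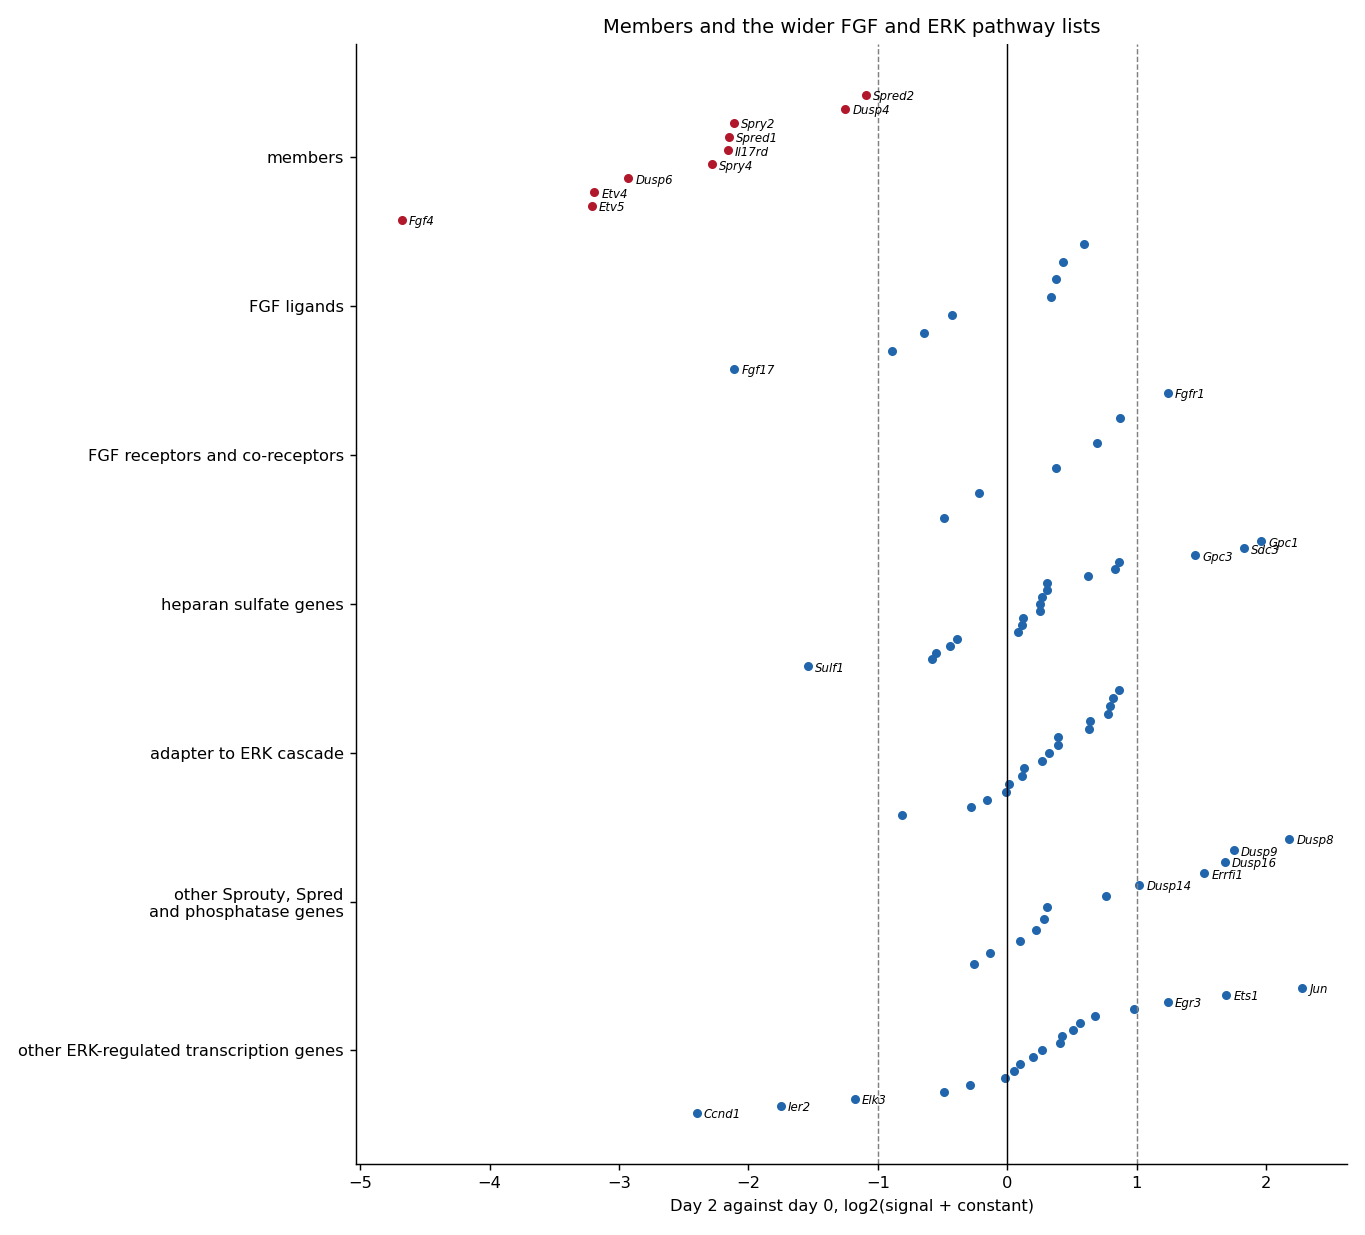
Difference of day 2 against day 0, in log2(signal + constant), for the 10 members (red) and for the 81 measured genes of 6 wider lists (blue), 1 point per gene, spread vertically by rank within a list. Dashed lines mark 2-fold and genes past it are named; the red points lie between -4.68 and -1.09 and the blue points on both sides of 0.

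The genes nearest to Fgf4 in their differences at day 1 and day 2, by Euclidean distance over these values on 3 arrays, were Morc1 (0.21 away, signals 5303, 1713 and 129), Stmn2 (0.36), Mymx (0.41), Ooep (0.57) and Upp1 (0.60). Stmn2 gave 9236, 2165 and 304, and Upp1 13235, 4412 and 724. The genes nearest to the median of the other 9 members, which lay at -0.30 at day 1 and -2.16 at day 2, were Emp1 (0.10 away, signals 614, 508 and 85.8), Nr5a2 (0.11), Ctnnal1 (0.11), Pecam1 (0.11) and Mapk4 (0.12). Nr5a2 gave 1895, 1472 and 411 in its brightest probe set, and its other probe sets gave smaller differences of -0.85 and -1.30 at day 2. With 3 arrays, such likeness describes these days only.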

How the data were processed

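Total RNA was labelled with biotin and hybridised to Affymetrix arrays, 1 per day. The values deposited by the authors are array intensities on a linear scale, made with MAS5 per the submitters' processing notes, which name no version. The arrays were scaled to a common 2% trimmed mean, which was 498 on each as deposited. The day 2 column also held 64 control probe sets, which were left out; whether that array was processed apart is not given. Genes were named from the platform annotation: 34945 probe sets had 1 gene, 932 several and 9160 none. Identifiers matched GRCm38.p6 for 34741, and 0 symbols changed. A constant of 55.9 was added before log2, probe sets with a mean below it were left out, and the brightest probe set stood for a gene. Counts are of genes past 2-fold; no p-value was computed. The calculation was tested on simulated data. Median signals were 83.5 (day 0), 92.5 (day 1) and 87.6 (day 2), and the number of arrays limits the precision.

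The members and lists were chosen with earlier results of these data known. Named genes were Pou5f1, the members, pathway genes past 2-fold in any comparison, a few fixed pathway genes and the 5 genes nearest in pattern. Spry1 and Sdc1 were named after their values had been seen. The GC box, CCAAT box and TATA motifs were added after the windows had been seen. Alternatives were constants of 27.9 and 112, no filter or one at the 60th percentile (151), quantile normalisation, equal medians of 43 ribosomal protein genes, means over probe sets, and leaving out probe sets whose name ends _x_at, _s_at or _a_at (probes that may match several transcripts). Python 3.11.15, numpy 2.4.6 and pandas 2.3.3 were used.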

Additional observations from a re-analysis of the deposited data

How the results depend on the processing

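Under the 8 alternatives, the members at least 2-fold lower numbered 9 to 10 at day 2, 2 to 3 at day 1 and 7 to 9 between the days, and 0 were at least 2-fold higher. Of 240 recalculated member differences 240 were below 0, and 19 moved by more than the pooled SD between probe sets. In the main setting, 44.7% of all genes were below 0 at day 1, 45.9% at day 2 and 49.8% between the days. As means over the probe sets of a gene, the median of the members was -1.81 at day 2 and -1.42 between day 1 and day 2. The wider pathway genes at least 2-fold lower at day 1 numbered 2 with the constant doubled and 3 under the stricter filter. Those at least 2-fold higher at day 1 numbered 8 with the constant halved, 1 with equal medians of ribosomal protein genes, 3 as means over probe sets and 3 without the probe sets that may match several transcripts; the cause was not tested. Signals under the constant of 55.9 have no resolved order. This limits the differences of Etv4, Fgf17 and Mapk4 (25.3) at day 2 and of Pou5f1 at day 1 and day 2. It also limits those of Dusp8 (26.1) and Egr3 (32.9), whose day 0 signals lay under it. No paired analysis was possible because each day has 1 array.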
